A study of Mus musculus with 2 samples.

Results

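The contractile and actin cytoskeleton genes form a set of 39 genes that encode smooth muscle contractile proteins, stress fibre proteins and focal adhesion proteins. All probe sets whose platform annotation names exactly 1 gene, with that gene in the set, were taken, which gave 99 of the 34945 probe sets annotated to 1 gene. RNA came from 2 cultures of unsorted bone marrow, 1 of wildtype and 1 of Cpdm genotype. Cpdm is a spontaneous mutant line without functional SHARPIN, which helps to assemble linear ubiquitin chains. Both cultures were grown for 10 days with ascorbic acid (50 µg/ml) and with β-glycerophosphate at 10 mM, the supplements that drive marrow stromal cells towards osteoblasts, and no other treatment per the labels. How many mice gave each culture, and their age and sex, is not stated in the labels, and since the cells were not sorted, more cells of a type and more RNA per cell cannot be told apart. Each genotype has a single Affymetrix array and hence no replicate error, and the differences below describe these 2 arrays without a test.

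Smooth muscle cells, pericytes and myofibroblasts contract by sliding actin thin filaments, coated with tropomyosin, calponin and caldesmon, along bundles of myosin II. Phosphorylation of the regulatory myosin light chain by myosin light chain kinase starts the contraction. In cultured stromal cells the same proteins build stress fibres, which are tied to the substrate at focal adhesions by actinin, filamin, vinculin, zyxin and LIM domain proteins. Serum response factor (SRF) binds the CArG box and, with its myocardin-related cofactors, drives many of these genes when monomeric actin is used up. In marrow stroma, the smooth muscle forms are known from perivascular and myofibroblast-like cells.

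Most members had a higher signal in the Cpdm culture. A gene was called measured where its probe set reached, in at least 1 array, a floor set at the 40th percentile of that array, which was 18.5 signal units for Cpdm and 18.7 for wildtype, and each gene was represented by whichever of its probe sets had the highest mean log2 signal. Of the 39 members 37 were measured, 34 of them in both arrays. At least 2-fold higher in Cpdm were 14 of these 37 (37.8%), at least 2-fold lower was 1, Des, and 22 lay between. Among all 14055 measured genes, 5.84% were at least 2-fold higher and 5.98% at least 2-fold lower. At a threshold of 1.5-fold, 21 members were higher and 1 was lower, against 15.7% and 13.5% of all measured genes. The median log2 ratio of Cpdm over wildtype was 0.82 over the measured members, against 0.03 over all measured genes. A ratio above 0 was found for 32 of the 37 members, against 52.4% of all measured genes. Of these 32, Synpo2, Fhl3 and Lmod1 were above the floor in the Cpdm array only and so could hardly fall below 0. Of the 34 members measured in both arrays, 29 had a ratio above 0 and 35.3% were at least 2-fold higher. Among all genes measured in both arrays, 5.72% were at least 2-fold higher. Over single probe sets, 62 of the 76 member probe sets measured in both arrays were higher in Cpdm (81.6%, against 51.2% of all such probe sets).

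The spread within the array pair is the only measure of error at hand, and it covers probes and arrays, not the error between cultures or animals. Over the hybridisation spike-ins the log2 ratio was 0.01 ± 0.11 (mean ± SD, n = 18 probe sets). For 5250 genes with at least 2 probe sets measured in both arrays, the log2 ratios of the first and second probe set differed by a median of 0.31 and by less than 1.11 in 95% of genes. The median corresponds to an SD of 0.32 per probe set. Of 15 members with at least 2 such probe sets, 6 had ratios of both signs. In 7 the range over all such probe sets was above 1.11, although a range over more than 2 probe sets can exceed the difference of a pair. Among the 14 higher members, 11 rested on 1 probe set measured in both arrays, 2 (Synpo2 and Fhl3) were above the floor in the Cpdm array only, and Tpm2 had further probe sets above the floor in both.

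**Figure D1:**
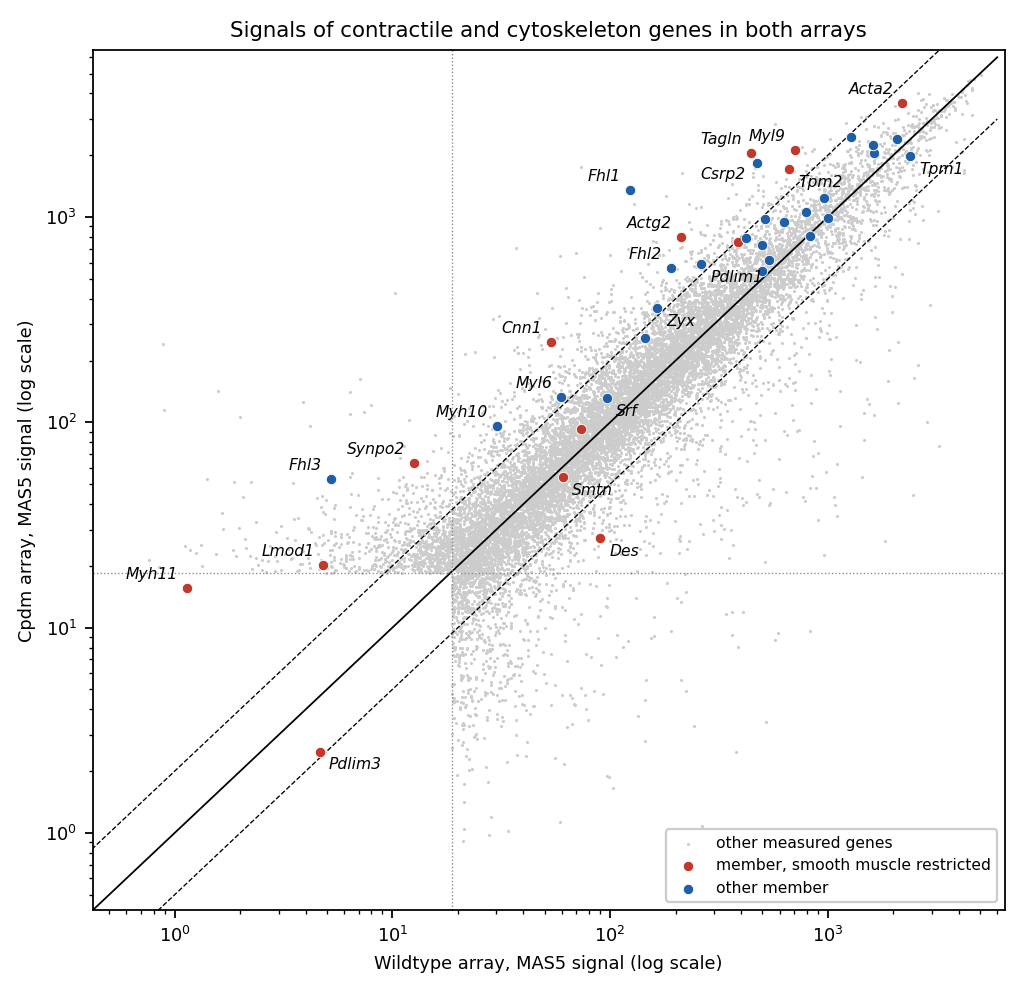
Signal of each member's representative probe set in the wildtype array (x) and the Cpdm array (y), in MAS5 units on log axes, over the other measured genes in grey; the solid line marks equal signals, the dashed lines a difference of 2-fold and the dotted lines the floor of each array. Signals are drawn without the floor. Of the 37 measured members, the 14 called higher and Lmod1 lie on or above the upper dashed line and Des alone below the lower one. Lmod1 (20.1 in Cpdm and 4.82 in wildtype) was not called higher, because its wildtype signal was set to the floor for the ratio. Myh11 and Pdlim3 lie below both floors.

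Because SRF is itself a member and the members are known for SRF control, the promoters were read for the CArG box, which is CC and GG around a core of 6 letters that are each A or T. The motif reads the same way on both strands, so 1 search covers both. RefSeq promoter windows of build GRCm38.p6, from 250 bases before to 50 bases after a transcription start, were matched by symbol for 35 members; Actg2, Tagln, Myh11 and Csrp2 were not matched. An exact CArG box lay in a window of 7 of the 35 (20%), against 488 of 27025 genes with a window (1.81%). The members with a match were Srf, Vcl, Myl9, Myl6, Cnn2, Fhl1 and Fhl2, whose boxes are shown in capitals with 20 bases on each side, 5′ to 3′ on the strand of the gene. Acta2 is shown as well, as the gene of the defining actin of smooth muscle, because its window holds 2 boxes with 1 core letter other than A or T.
Srf, chr17:46556195-46556264, minus strand: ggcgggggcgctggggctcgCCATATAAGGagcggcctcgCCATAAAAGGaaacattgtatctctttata
Vcl, chr14:20929151-20929200, plus strand: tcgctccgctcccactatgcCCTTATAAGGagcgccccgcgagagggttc
Myl9, chr2:156775283-156775332, plus strand: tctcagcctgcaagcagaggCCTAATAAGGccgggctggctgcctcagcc
Myl6, chr10:128493030-128493079, minus strand: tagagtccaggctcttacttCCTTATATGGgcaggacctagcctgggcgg
Cnn2, chr10:79988524-79988573, plus strand: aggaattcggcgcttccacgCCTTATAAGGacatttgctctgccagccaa
Fhl1, chrX:56779561-56779610, plus strand: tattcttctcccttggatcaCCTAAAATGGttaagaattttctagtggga
Fhl2, 1 start, chr1:43196828-43196877, minus strand: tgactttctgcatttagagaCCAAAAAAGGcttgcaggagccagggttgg
Fhl2, another start, chr1:43163963-43164012, minus strand: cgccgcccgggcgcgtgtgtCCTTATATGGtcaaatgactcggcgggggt
Acta2, chr19:34255378-34255477, minus strand: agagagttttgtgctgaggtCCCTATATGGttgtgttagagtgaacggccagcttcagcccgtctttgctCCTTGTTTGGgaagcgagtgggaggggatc

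The members with an exact box did not all differ between the cultures. Log2 ratios were 3.46 for Fhl1, 1.59 for Myl9, 1.57 for Fhl2, 1.16 for Myl6, 0.93 for Vcl, 0.44 for Srf and -0.02 for Cnn2, so 4 of 7 were at least 2-fold higher, with a median of 1.16. Myl6 is 1 of these 4, and the median is its value. Probe sets annotated to Myl6 together with other gene records gave only 0.38 and 0.17, so both the count and the median depend on the probe set taken for Myl6. Among the 27 measured members with a window and no exact box, 7 were at least 2-fold higher and the median was 0.55. With 1 mismatch allowed in the core, the counts were 4 of 11 with a match and 7 of 23 without, and the medians, 0.70 and 0.60, were closer. Outside the set, 174 measured genes had an exact box, and 5.75% of them were at least 2-fold higher, against 5.49% of 11075 measured genes without one, with medians of 0.15 and 0.02. Outside the set, the share of genes with the box that were at least 2-fold higher was close to the 5.84% of all measured genes.

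The actins of smooth muscle were both higher in Cpdm. Acta2, which encodes the α-smooth muscle actin used as the marker of myofibroblasts, had a signal of 3580.1 in Cpdm and 2201 in wildtype. Both signals lie high on the scale, and the 1.63-fold difference rests on a probe set of the kind (_s_at) that can bind transcripts of relatives. The other Acta2 probe sets lay at or below the floor. Actg2, the γ-actin of enteric smooth muscle, read 799.6 in Cpdm and 211 in wildtype, a 3.78-fold difference on its only probe set. The cytoplasmic actin genes, which are not members, differed less, with 3472 against 3504 for Actb and 3442 against 2769 for Actg1.

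The transgelin and calponin family, small proteins that bind actin filaments and of which some are markers of smooth muscle, divided by form. Tagln, also called SM22α, read 2059 in Cpdm and 442 in wildtype, a 4.66-fold difference. Cnn1, the basic calponin that slows myosin in differentiated smooth muscle, read 245 and 53.4, a 4.60-fold difference. Both smooth muscle forms were therefore more than 4-fold apart between the cultures. Cnn3, the acidic calponin of non-muscle cells, read 2465 and 1279, and its 5 probe sets measured in both arrays gave log2 ratios from 0.95 to 1.34, with the representative one at the low end, just under 2-fold. Tagln2, the form of leukocytes and many other cells, read 727 and 498, and Cnn2, found in macrophages and fibroblasts, was near equal at 987 and 999.7. The log2 ratio of Tagln exceeded that of Tagln2 by 1.67, and Cnn1 exceeded Cnn2 by 2.22 and Cnn3 by 1.26. Each is more than the 1.11 within which 95% of same-gene probe set pairs lay. For Cnn3 this depends on its representative probe set, since with any of its others measured in both arrays the excess is under 1.11.

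Among the myosin genes, Myl9, the regulatory light chain of smooth muscle and stress fibres, read 2118 in Cpdm and 704 in wildtype, a 3.01-fold difference. Mylk, the kinase that phosphorylates it, read 759.5 and 386, which is 1.97-fold and just under the threshold. The log2 ratio was 0.86 on another Mylk probe set, and the third was equal in both arrays at 74.6 and 75.4. Myh10, the heavy chain of non-muscle myosin IIB, read 96.2 and 30.3, a 3.18-fold difference, while Myh9, the heavy chain of non-muscle myosin IIA, read 1243 and 960.1. The Myh9 probe sets disagreed in sign, with log2 ratios from -0.27 to 0.85. Myh11, the heavy chain that defines differentiated smooth muscle, lay below the floor in both arrays on both of its probe sets, so this marker had no measurable signal in either culture.

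The essential light chain gene Myl6 was called higher on a probe set with signals of 133 and 59.5. A pair of other probe sets, annotated to Myl6 together with related gene records and so outside the rule, had far smaller differences, at 2431 against 1869.8 and 2891 against 2564, or 1.30-fold and 1.13-fold. Counted by those, 13 members and not 14 were at least 2-fold higher.

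Tropomyosins wind along the actin filament and set which myosins and severing factors reach it, and the 4 genes each make several isoforms. Tpm2, the β-tropomyosin of smooth muscle and fibroblasts, read 1714 in Cpdm and 663 in wildtype, a 2.58-fold difference. Its 4 probe sets gave log2 ratios from 0.66 to 1.64, all above 0. Tpm1 went the other way on its main probe set, with 1979 against 2389, and on 3 of its 4 probe sets, which ranged from -0.81 to 0.37. The difference between the log2 ratios of Tpm2 and Tpm1, 1.64, was larger than the disagreement of 95% of same-gene pairs. Tpm3 and Tpm4, the cytoskeletal forms, read 2059 against 1623 and 2254 against 1617, and the log2 ratios of the 4 Tpm3 probe sets measured in both arrays ranged from 0.08 to 1.30.

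The thin filament regulators and desmin held the only lower member. Des, the intermediate filament protein of muscle and of pericytes, read 27.3 in Cpdm and 90.1 in wildtype, 3.30-fold lower in Cpdm, and its other probe set, at 17.9 and 34.8, lay below the floor in Cpdm. Synpo2, a Z-disc and stress fibre protein also called myopodin, read 63.3 and 12.6 and was at least 3.38-fold higher, since the wildtype signal lay below the floor. A second Synpo2 probe set read 54.2 and 1.44 in the same direction. Cald1, the caldesmon that holds myosin off the filament, read 2411 and 2078, with log2 ratios from -0.20 to 1.38 over its 4 probe sets measured in both arrays. Smtn, or smoothelin, was near equal at 54.2 and 60.8, and Lmod1, the smooth muscle leiomodin that starts new filaments, was just above the floor in Cpdm alone, at 20.1 against 4.82. The genes of this group thus had no common direction.

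Cross-linkers and adhesion plaque proteins showed smaller differences. Zyx, or zyxin, which moves to stretched stress fibres, read 360.1 in Cpdm and 164 in wildtype, a 2.19-fold difference, and its second probe set, at 37.4 and 4.18, was above the floor in Cpdm only. Vcl, the vinculin that links talin to actin, read 979.6 and 515, or 1.90-fold. Flna, the filamin that makes actin gels, read 946 and 626, and Actn1, the stress fibre actinin, 1056 and 798, with probe sets of both signs from -0.50 to 1.08. Actn4 was near equal at 811 and 830.3. Flnc, the muscle filamin, read 92.7 and 73.7, and the 8 probe sets of Lpp, a relative of zyxin, ranged from -0.98 to 0.64. Of the 7 genes of this group, 1 was at least 2-fold higher, 6 lay between, and the median log2 ratio was 0.40.

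Among the LIM domain proteins of stress fibres and Z-discs, Fhl1 had the largest log2 ratio of the set on its representative probe set. Fhl1, a LIM-only protein of skeletal and smooth muscle, read 1353 in Cpdm and 123 in wildtype, a 10.97-fold difference. This rests on 1 probe set, and the other, near the floor at 17.4 and 22.5, ran in the opposite direction; the mean over both gave a log2 ratio of 1.59 in place of 3.46, below those of Tagln and Cnn1. Fhl1 lies on the X chromosome, and Xist, the RNA that silences an X chromosome in females, differed by 4.51-fold with the higher signal in Cpdm. The Y-linked genes Uty and Eif2s3y ran the other way, at 42.9 against 162 and 80.6 against 249. The 447 other measured X-linked genes had a median log2 ratio of 0.07, with 6.26% of them at least 2-fold higher. Fhl2, a LIM-only cofactor of SRF and other factors, read 566 and 190.0, a 2.98-fold difference, and Fhl3 read 52.8 and 5.21, at least 2.82-fold higher. On their representative probe sets all 3 LIM-only genes were higher in Cpdm, but Fhl3 counts as measured only through the Cpdm array, where it is high.

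The cysteine-rich proteins and the PDZ-LIM proteins, which dock on actinin, followed in part. Csrp2, a cysteine-rich protein of vascular smooth muscle, read 1832 in Cpdm and 473 in wildtype, a 3.87-fold difference, and its relative Csrp1 read 794 and 422, or 1.88-fold, with a second probe set at a log2 ratio of 0.86. Pdlim1 read 589 and 262, a 2.25-fold difference, and Pdlim7 256 and 145, or 1.77-fold. Pdlim5 was near equal on its representative probe set, at 546 and 501, although all 7 of its probe sets were above 0, up to 1.24. Pdlim3, the muscle form, was below the floor in both arrays. Of the 8 measured LIM proteins, 5 were at least 2-fold higher and none at least 2-fold lower, and their median log2 ratio was 1.33. Both the count and the median include Fhl3, which was above the floor in the Cpdm array only.

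Srf itself read 131 in Cpdm and 96.7 in wildtype, a log2 ratio of 0.44, with 0.35 on its second probe set. The difference is close to the SD of 0.32 between probe sets of a gene. The members closest to the 2-fold line were Mylk (1.97-fold), Cnn3 (1.93-fold), Vcl (1.90-fold) and Csrp1 (1.88-fold) below it and Zyx (2.19-fold), Myl6 (2.23-fold) and Pdlim1 (2.25-fold) above it. Across the 22 pairs of genes within the families named above, the log2 ratios of the representative probe sets differed by more than 1.11 in 8. These 8 include Fhl1 and Fhl3, where the difference rests on the floor, since the Fhl3 ratio is a lower bound. Without the floor the log2 ratios of Fhl1 and Fhl3 were 3.46 and 3.34.

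**Figure D2:**
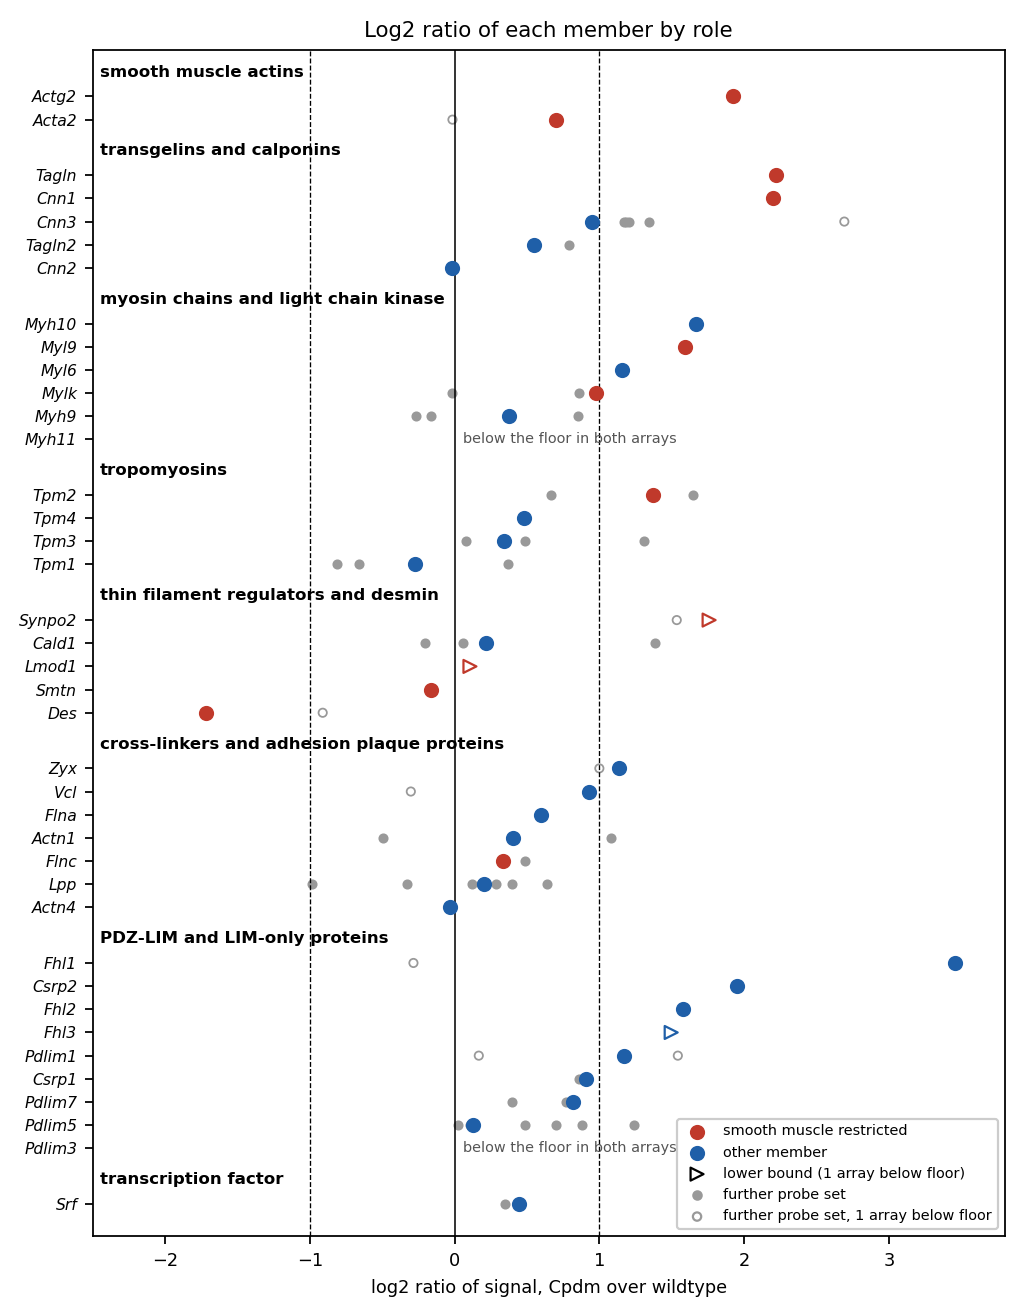
Log2 ratio of the Cpdm over the wildtype signal (x) for each member, grouped by role; large symbols are representative probe sets, triangles are lower bounds, small grey symbols are further probe sets, open ones above the floor in 1 array only, and dashed lines mark 2-fold. Fhl1 stands farthest to the right at 3.46, Des farthest to the left at -1.72, and the probe sets of Cald1, Lpp and Actn1 spread over both sides of 0.

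Smooth muscle restricted members and the others were set side by side. Of 12 measured genes listed as largely restricted to smooth muscle and myofibroblasts, 6 were at least 2-fold higher and 1 was lower, with a median log2 ratio of 1.17. The list is a loose one. It holds Flnc, Des, Tpm2 and Myl9, which are described above for other cells or structures too, and leaves out Csrp2 and Fhl1. Of the 25 other members 8 were at least 2-fold higher and none at least 2-fold lower, with a median of 0.60. Synpo2, which is among the 6, and Lmod1 count as measured only through the Cpdm array, where they are high. The same holds for Fhl3, which is among the 8. The range of the restricted class, from -1.72 to 2.22, covers most of the values of the other members, and a difference between the classes was not tested.

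Other genes of the actin pathway were counted in the same way, from lists of related function. Of 25 measured adaptors, 9 were at least 2-fold higher and 2 lower, with a median log2 ratio of 0.71. Palld, the stress fibre protein palladin, read 882 in Cpdm and 320.5 in wildtype (2.75-fold), and Pdlim4 read 1144 and 421 (2.71-fold). Sorbs2, an adaptor of the vinculin complex, was 2.78-fold lower at 146 against 404, and Limch1, an activator of non-muscle myosin, read 15.3 and 56.2 and was at least 3.04-fold lower. Tln1, Pxn, Tns1, Vasp, Tgfb1i1 and Ablim1 were also at least 2-fold higher, from just past 2-fold (Pxn) to 2.61-fold (Tgfb1i1). Lims2, at 46.6 in Cpdm and 11.6 in wildtype, was at least 2.49-fold higher. It completes the 9 but counts as measured only through the Cpdm array, where it is high.

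The cofactors of SRF and the genes of the actin pool were mostly within 2-fold. Of 6 measured SRF cofactors, 1, Elk3, was at least 2-fold higher, at 405 against 174, with its other probe sets measured in both arrays at log2 ratios of 0.80 and 0.38. Myocd, the smooth muscle cofactor myocardin, was under the floor on each array. None of 18 measured genes of actin monomers and filament turnover passed 2-fold in either direction, and their median was 0.25. This list includes Actb and Actg1.

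Among 19 regulators of branched actin, many of them leukocyte genes, 3 were at least 2-fold higher, the haematopoietic genes Was (214 against 86.2), Hcls1 (282 against 113) and Coro1a (894 against 412). Arpc5l, a subunit of the complex that branches actin, was 2.14-fold lower at 393 against 841. Of 17 membrane linkers, Cav1, the caveola protein caveolin, was 4.13-fold higher at 948 against 229, Cavin1, its partner, 2.17-fold higher at 289 against 133, and Sgca, a sarcoglycan of muscle, 5.32-fold lower at 59.3 against 316. Of the 26 striated muscle genes, 13 lay below the floor in both arrays, including Myog. The skeletal actin gene Acta1 was 5.58-fold higher at 112 against 20.01, close to the floor in wildtype, and Myl1 at least 3.35-fold lower at 16.9 against 61.9.

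Markers of the cells that an unsorted marrow culture can hold were counted in the same way, and the lists differed in direction. Osteoblast markers were at least 2-fold lower in Cpdm for 7 of 8 measured genes, with a median log2 ratio of -3.08 and a summed signal of 4933 against 14955, while the eighth, Ibsp, had log2 ratios of -0.39 and -2.63 on its probe sets. Macrophage markers were at least 2-fold higher for 3 of 14 and at least 2-fold lower for none, with a median of 0.45 and a summed signal of 27718 against 21507. Csf1r, counted as within 2-fold, had log2 ratios of 0.46, 1.25 and 1.12 on its probe sets. Pericyte and vascular smooth muscle markers went both ways, with 1 of 8 at least 2-fold higher and 3 lower and a median of 0.04. The higher one was Angpt1, at 228 in Cpdm and 42.5 in wildtype. The lower ones were Ndufa4l2 (7.23 and 81.4), Rgs4 (4.19 and 53.3) and Cspg4 (45.2 and 93.3), the first 2 below the floor in Cpdm. Pdgfrb, at 430.0 and 225, and Notch3, at 86.2 and 62.0, lay within 2-fold. Mcam, Kcnj8 and Higd1b lay below the floor in both arrays. The part that the make-up of the cultures has in the differences of the contractile genes was not tested.

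Fibroblast and myofibroblast markers had no common direction either. Of 13 measured, 2 were at least 2-fold higher and 4 lower, with a median of -0.03 and a summed signal of 17755 against 19739. Loxl1, which cross-links elastin, was 2.85-fold higher, and Col3a1, a chain of fibrillar collagen, 2.05-fold higher at 3080 against 1505. Postn, the periostin of activated fibroblasts, read 2746 and 2220.2, and Fap, the fibroblast activation protein, was 2.63-fold lower at 628 against 1652. The further markers at least 2-fold lower were Dcn (954 against 2357), Pdgfra (57.0 against 134) and Cthrc1 (985 against 1987).

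**Figure D3:**
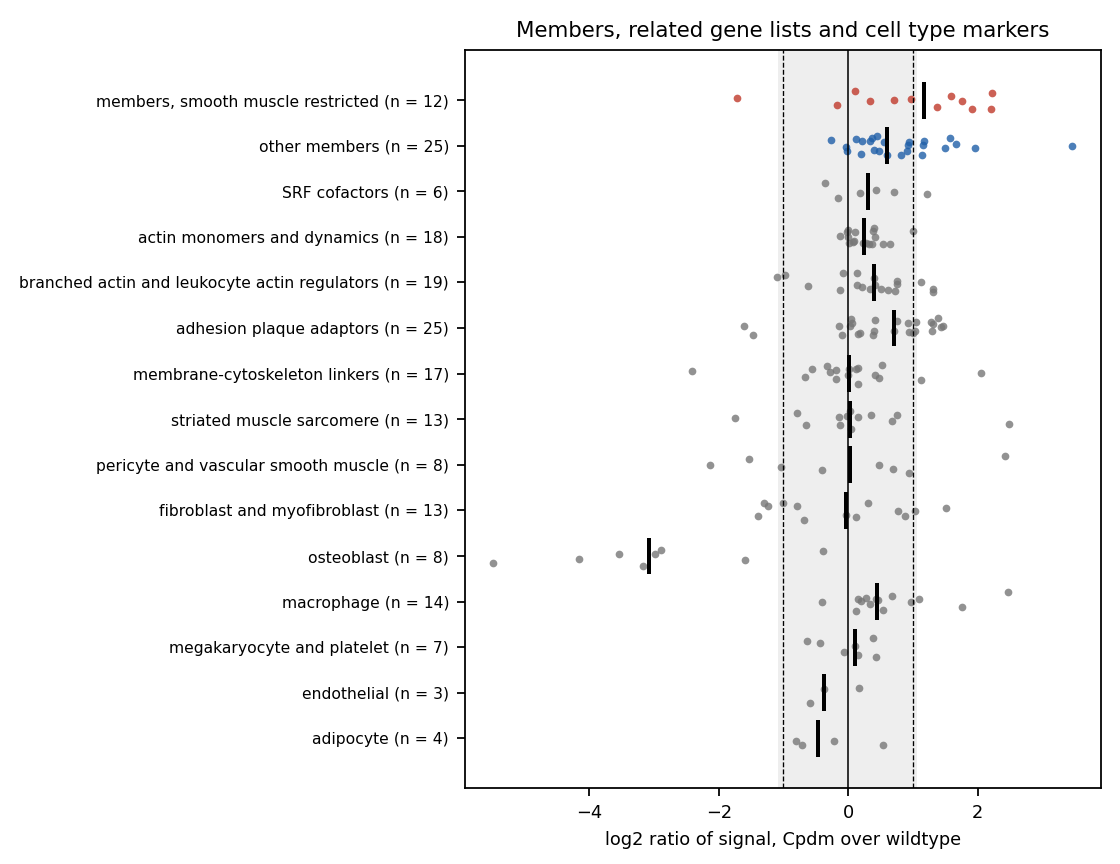
Log2 ratio of the Cpdm over the wildtype signal (x) for the measured genes of the members, of related lists and of cell type marker lists (y), with the number of genes; vertical bars are medians, dashed lines mark 2-fold and the grey band holds the values between the 5th and 95th percentile of all measured genes, from -1.09 to 1.07. The medians of the smooth muscle restricted members (1.17), the other members (0.60) and the adhesion plaque adaptors (0.71) lie to the right, and that of the osteoblast markers (-3.08) to the left.

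Some features of the whole arrays run alongside genotype. Sharpin transcript was present in both cultures, at 82.2% and 89.4% of wildtype in the Cpdm array on its 2 probe sets; the mutation is a frameshift, so the transcript does not check the labels. For the β-actin control, the 3′ probe set read 1.92 times the 5′ probe set in Cpdm and 1.61 times in wildtype. The 18S ribosomal RNA controls had log2 ratios from -3.75 to -2.37. Xist was higher in Cpdm and Uty and Eif2s3y lower, as given beside Fhl1, so a difference between the cultures in the share of female and male cells cannot be told apart from genotype. The part of these in the differences of the contractile genes was not tested.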

How the data were processed

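The deposited table gives linear intensity for 45101 probe sets in both arrays, as MAS5 signals made with GCOS 1.4 per the submitters' processing notes; the authors' scaling target and background settings are not stated in the sources used here. Affymetrix in vitro transcription labelled 5 µg total RNA of each culture with biotin, per the labels' protocols. Both columns had a mean of 100.0 once 2% of probe sets were trimmed at each end. The table holds no detection calls, so low signals are noisy, and high signals can be compressed. The number of arrays limits the precision.

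Of 45037 non-control probe sets, 932 name several genes and 9160 are not listed in the annotation used here. All 39 members matched a current gene record by Entrez identifier. Python 3.11.15 with numpy 2.4.6 and pandas 2.3.3 was used, without further scaling; signals under the floor were set to it before log2 ratios were taken, and the steps were tested on simulated data. Where 1 array lay at the floor, a fold is written as "at least". Alternatives were the floor, the scaling, the probe set rule and the fold. All members are named, and up to 4 genes of each related list past 2-fold by size. Of marker lists, 3 genes by signal and 2 by difference are named, some of them in the closing section. Other genes past 2-fold are named only to complete a count. The members and lists were chosen with earlier results of these data known. Protein sequences were not used here. The result of 1 related list is not reported here.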

Additional observations from a re-analysis of the deposited data

How the results depend on the processing

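With 1 array per genotype no alternative replaces replication, and no paired analysis was possible because each genotype has 1 array. The count of members at least 2-fold higher was between 12 and 16 over 9 alternatives of floor, scaling and probe set choice, the count of lower members was 1 in each, and the median log2 ratio of the members lay between 0.61 and 0.91. With 1.5-fold as the threshold, 21 members were higher and 1 was lower. Actg2, Cnn1, Csrp2, Fhl1, Fhl2, Myh10, Myl9, Tagln and Zyx, 9 of the 14, were at least 2-fold higher in each alternative that gave them a value, although the mean over probe sets moved Fhl1 from a log2 ratio of 3.46 to 1.59. Myl6 fell below 2-fold with a pseudocount of 16 (log2 ratio 0.98) and with shared probe sets (0.17), Pdlim1 with the mean over probe sets (0.96), Tpm2 without probe sets ending in _s_at, _x_at or _a_at (0.66), and Synpo2 and Fhl3 with the floor at the 60th percentile (0.56 and 0.29).

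Leaving out the _s_at, _x_at and _a_at probe sets removes Actg2 and the main Acta2 probe set, and the actin median turned from 1.31 to -0.015. That value is Acta2 alone, on a probe set at the floor in Cpdm (18.5) and below it in wildtype (3.44). It therefore reflects the floors of the arrays and gives no actin difference. The same setting moved the median of the transgelins and calponins from 0.95 to 1.77 and that of the smooth muscle restricted members from 1.17 to 0.82. The mean over probe sets gave 1.42 for the transgelins and calponins. Without a floor the median of the SRF cofactors was -0.16 in place of 0.31, with genes below the floor counted. Allowing 1 mismatch in the CArG core raised the members with a match from 7 to 12 of 35 (34.3%), against 11.3% of all genes with a window. The alternatives with shared probe sets and with members above the floor in both arrays alone were chosen after seeing the data.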

Other observations

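The complement genes C1qa, C1qb and C1qc, the macrophage markers of highest signal, had log2 ratios of 0.34, 0.44 and 0.16, while Cx3cr1, Fcgr1 and Mertk were 5.53-fold, 3.39-fold and 2.14-fold higher in Cpdm. Of 7 measured megakaryocyte and platelet genes none passed 2-fold, with Pf4 at 2531 in Cpdm and 1878 in wildtype and Itga2b at 126 and 131, and the median log2 ratio was 0.10. Treml1, Gp5 and Ppbp had log2 ratios of 0.38, -0.64 and -0.44. Of 9 endothelial genes 6 lay below the floor in both arrays, among them Pecam1 and Cdh5, and Kdr, Esam and Cldn5 had log2 ratios of -0.37, -0.58 and 0.16. Of 4 measured adipocyte genes none passed 2-fold, with Lpl at 961 and 1575, Fabp4 at 455 and 532, and Pparg at a log2 ratio of -0.80.

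Further stromal and osteoblast markers were Fn1, with a log2 ratio of 0.12, and Lox, with -0.68. Col1a1 read 1070.0 and 3222 and Dmp1 372 and 2943, while Phex was at least 44.7-fold lower and Pth1r 17.9-fold lower in Cpdm.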
